A study of Mus musculus with 10 samples.

Results

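In the table of intestinal macrophages Adrb1, which encodes the β1 adrenoceptor, was listed and no α adrenoceptor gene was. Adrb1 was taken by a pattern of adrenoceptor symbols and is 1 of the 17279 listed genes. The α adrenoceptor genes that the pattern covers, Adra1a, Adra1b, Adra1d, Adra2a and Adra2b, had no row, and neither had Adra2c, which it does not cover. All listed genes reached 10 counts in 2 or more libraries. A gene that is not listed may still be expressed below some limit, and no value is given for it. The table held 13162 of the 21951 protein-coding genes of the GENCODE M21 annotation (60.0%).

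The samples were lamina propria macrophages sorted as CX3CR1-GFP+ cells from the peeled mucosa of the whole small intestine of mice labelled C57BL6/J. The mice had undergone sham surgery (n = 5 libraries) or pMCAO (n = 5), the permanent occlusion of the middle cerebral artery that models stroke, and were sampled after 24 h. GFP is driven by Cx3cr1 in such reporter mice, a gene that monocytes and some other myeloid cells also use, and the labels give neither the reporter allele nor age. The name of replicate 1 of each group marks it as a pool, without saying of what, and all libraries are labelled as biological replicates.

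Adrenoceptors are the receptors for noradrenaline and adrenaline, which sympathetic nerves and the adrenal gland release. The α1 receptors couple to Gq and phospholipase C, the α2 receptors to Gi, which restrains adenylyl cyclase, and the β receptors to Gs, which raises cyclic AMP (cAMP), activates protein kinase A and, through CREB, transcription. The β1 receptor is best known for driving the heart rate, and cAMP in macrophages is known to dampen the release of inflammatory cytokines.

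Adrb1 (ENSMUSG00000035283) lies on the plus strand of chromosome 19 from 56722199 to 56733113 (GRCm38), with a coding sequence for 466 amino acids from 56722372 to 56723769. Its coding transcript has 1 exon, so splicing cannot tell reads of it from reads of genomic DNA, and no other annotated gene overlaps it. The RefSeq promoter table (GRCm38.p6) held 6 entries for 5 of the adrenoceptor genes. The 250 bases before the RefSeq start are shown for Adrb1, which is listed, and for Adra2a, an α2 receptor gene that is not. They are shown because both hold the short cAMP response element, a core of the site that CREB binds at the end of the cAMP pathway. The capitals mark this core, TGACG (searched on both strands), which was in 17.8% of the 32851 windows of this length. The window of Adrb1 is chr19:56721867-56722116 and that of Adra2a chr19:54045009-54045258, both on the plus strand. The RefSeq starts differ from the GENCODE starts. The window of Adrb1 ends short of the gene start given above, and that of Adra2a lies inside the GENCODE gene, which starts at 54044151.
Adrb1: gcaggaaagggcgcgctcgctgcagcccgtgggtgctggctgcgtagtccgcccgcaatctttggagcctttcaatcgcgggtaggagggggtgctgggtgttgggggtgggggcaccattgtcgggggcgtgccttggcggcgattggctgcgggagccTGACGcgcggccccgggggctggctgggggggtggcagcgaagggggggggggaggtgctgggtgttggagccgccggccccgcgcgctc
Adra2a: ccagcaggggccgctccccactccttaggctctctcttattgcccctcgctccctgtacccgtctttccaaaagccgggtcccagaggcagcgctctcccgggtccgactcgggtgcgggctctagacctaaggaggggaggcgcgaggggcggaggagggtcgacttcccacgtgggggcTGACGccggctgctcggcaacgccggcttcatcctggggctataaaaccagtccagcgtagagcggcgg
The core ended 85 bases before the RefSeq start of Adrb1 and 64 bases before that of Adra2a. It was in none of the windows of Adra1b, Adra2b and Adra2c, and the full palindrome TGACGTCA, present in 1.55% of all windows, was in none of the 6. The window of Adra2a also held the TATA box TATAAA (12.4% of all windows), which that of Adrb1 did not. A match of letters describes the sequence and is no evidence of binding.

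Sequencing depth differed between the groups, with totals of 18894151 to 60665972 counts in sham and 6430643 to 28672285 in pMCAO. All 10 markers of macrophages were listed, and their summed level was 9974 to 17250 CPM, the count scaled to a library total of 1000000, in sham and 9477 to 15401 CPM in pMCAO. Sham replicate 5 and pMCAO replicate 4 stood apart by Xist, at 2237 and 4686 CPM, against at most 4.88 CPM elsewhere. Markers of other cells were present as well, with summed mast cell markers at 1004 to 14009 CPM in sham and 244.6 to 4202 CPM in pMCAO, and epithelial markers at 297 to 686 CPM in sham and 87.3 to 786 CPM in pMCAO. Summed B and plasma cell markers reached 22466 CPM in sham and 25234 CPM in pMCAO. In such bulk libraries, fewer cells of a type and less RNA per cell cannot be told apart. Of the markers of neurons, adipocytes and enteric glia, 2 of 7, 0 of 3 and 1 of 4 were listed, the highest at a summed 4.13 CPM.

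Adrb1 was at a low level in these bulk libraries of sorted macrophages. It was at 11.3, 1.65, 2.61, 7.78 and 6.17 CPM in sham replicates 1 to 5. After pMCAO it was at 8.09, 4.95, 5.93, 22.5 and 2.33 CPM. Its mean was 5.90 ± 3.93 CPM for sham and 8.76 ± 7.95 CPM for pMCAO (SD over 5 libraries each). The spread within a group was wide, with the highest library 6.85 times the lowest in sham and 9.64 times after pMCAO. The groups overlapped, with 1 pMCAO library above the highest sham library and 0 below the lowest. With 52 to 374 counts per library the gene was detected in all 10, and its mean level of 2.17 ± 1.80 CPM per kb of merged exons (SD, n = 10) was higher than that of 36.7% of the listed genes. In single libraries it lay between the 16.6th and the 64.8th percentile.

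**Figure D1:**
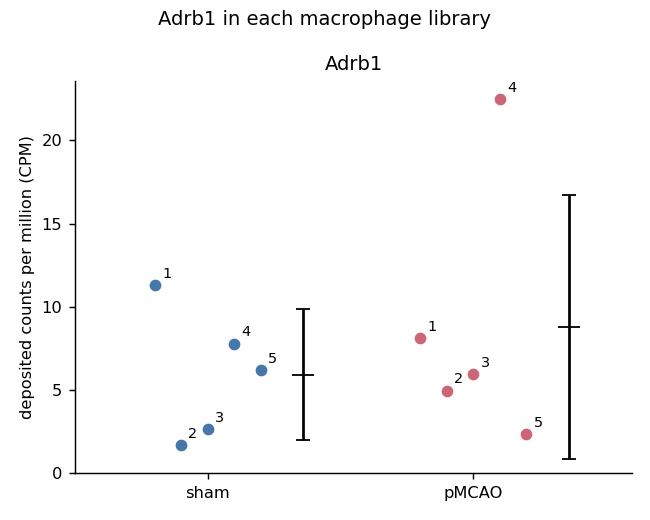
Deposited CPM of Adrb1 in 5 sham and 5 pMCAO libraries, each point a library with its replicate number and the bar the group mean with its SD. The highest library is pMCAO replicate 4, at 22.5 CPM, and the groups overlap.

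Adrb1 was compared per kb with 10 listed receptors that couple to Gs, of 15 named in a list, and its mean level ranked 5 of these 11. The highest were Ptger4, a receptor for prostaglandin E2, at 12.7 CPM per kb, and Calcrl, the receptor for calcitonin gene-related peptide and adrenomedullin, at 8.08 CPM per kb, and Adrb1 was above them in 0 of 10 libraries. It was near Vipr1, a receptor for vasoactive intestinal peptide (2.61 CPM per kb), and Hrh2, a histamine receptor (2.22 CPM per kb), and was above each of them in 3 of 10 libraries. The adenosine receptor gene Adora2b (1.78 CPM per kb) and the prostaglandin receptor gene Ptger2 (1.72 CPM per kb) were next below, with Adrb1 above them in 5 and 6 of 10 libraries. The order of Adrb1 and these 4 neighbours was thus not the same in all libraries. Adrb1 reached 6.65 CPM per kb in pMCAO replicate 4, against 0.488 to 3.34 CPM per kb elsewhere, and this library enters its mean and rank. None of the 5 dopamine receptor genes, the receptors of the third catecholamine, was listed.

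**Figure D2:**
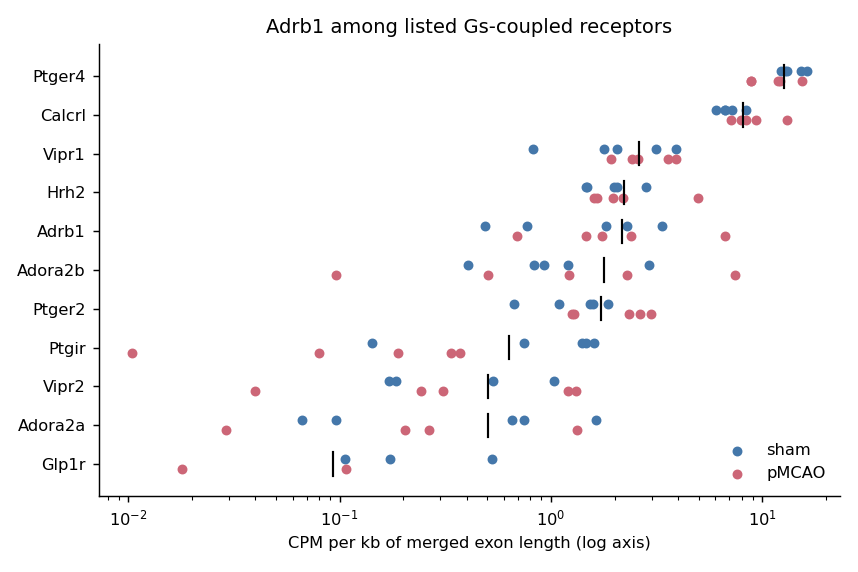
Level of 11 listed Gs-coupled receptor genes in CPM per kb of merged exon length on a log axis, each point a library, the vertical line the mean of 10 libraries and libraries at 0 not drawn. Ptger4 (12.7) and Calcrl (8.08) have the highest means, while Adrb1 (2.17) lies among Vipr1, Hrh2 and Adora2b.

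To ask whether stroke altered Adrb1, all 16949 genes that passed a filter on low counts, Adrb1 among them, were compared between pMCAO and sham. For Adrb1 the log2 fold change was 0.52 (SE 0.64, 95% interval −0.86 to 1.91), with an unadjusted p of 0.428 and an adjusted p of 0.945 in edgeR's quasi-likelihood test. It did not pass an FDR of 0.05, and neither did any of the 16949 genes (0%), of which 799 had an unadjusted p under 0.05 (4.71%). DESeq2 called 3 genes and limma-voom 0, with and without sample quality weights (1011, 1888 and 882 at an unadjusted p under 0.05 for DESeq2, limma-voom with weights and without), and Adrb1 was not called. The mean log2 CPM of Adrb1 differed by 0.46 (two-sided exact permutation p = 0.548), and 4 of 5 pMCAO libraries were above the sham mean. The interval includes no change as well as a log2 fold change of 1.

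One library, pMCAO replicate 4, held much of this difference. Without it the log2 fold change of Adrb1 in edgeR was −0.16, while the difference of mean log2 CPM was 0.036. Without both libraries with high Xist counts the edgeR value was −0.22. Of the 10 macrophage markers, 3 (Mertk, Adgre1 and Csf1r) were highest in the same library, with Mertk and Adgre1 at 362 and 938 CPM against at most 269 and 589 CPM in the other 9. The other 7 were highest elsewhere, and the summed level was 15401 CPM there against 17250 CPM in sham replicate 3. Lyz2, a large part of both sums, was at 10020 CPM in sham replicate 3 and at 7932 CPM in pMCAO replicate 4. Of the 5 endothelial markers it was highest for Lyve1, a gene of lymphatic endothelium that some resident macrophages also express, at 259 CPM against 8.89 to 84.2 CPM elsewhere. The other 4 (Pecam1, Cdh5, Kdr and Vwf) were highest in other libraries, with Pecam1 at 45.8 CPM there and 118 CPM in sham replicate 5. Markers of smooth muscle summed to 63.6 CPM there and to at most 38.1 CPM in the other 9. Of these 5 markers, Myh11, Des and Cnn1 were highest there, with Myh11 at 24.2 CPM against at most 6.46 CPM, and Acta2 and Tagln were highest in pMCAO replicate 3. Rgs5, a pericyte gene, was at 36.9 CPM against at most 11.7 CPM, and the other pericyte markers, Cspg4 and Notch3, were not listed. The epithelial markers summed to 87.3 CPM, the lowest of all libraries, and Epcam was at 14.8 CPM. The part of these cell types in the level of Adrb1 was not tested. Among the other libraries, sham replicate 1 had the highest Adrb1 (11.3 CPM) beside Lyve1 at 39.0 CPM, and sham replicate 4, with the next highest Lyve1 (84.2 CPM), had Adrb1 at 7.78 CPM.

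**Figure D3:**
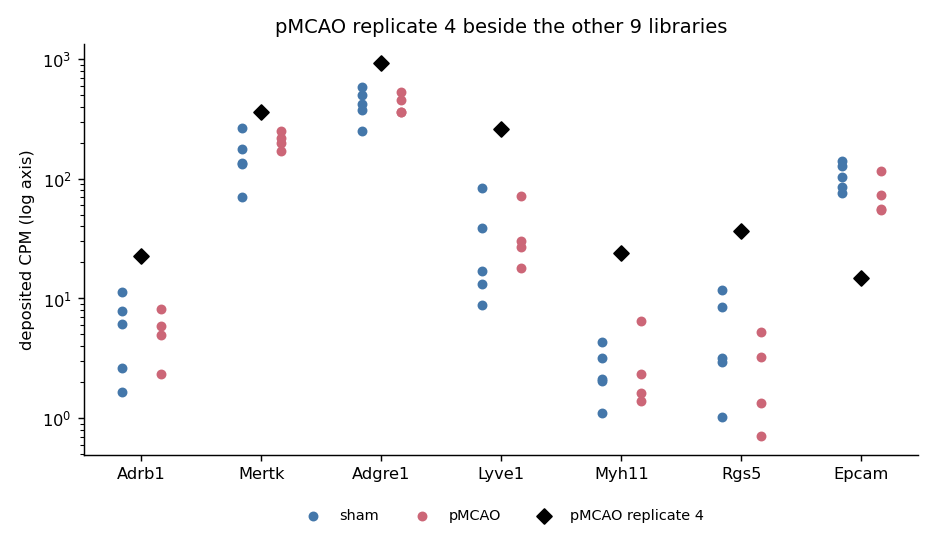
Deposited CPM on a log axis of Adrb1 and of markers of macrophages (Mertk, Adgre1), lymphatic endothelium or resident macrophages (Lyve1), smooth muscle (Myh11), pericytes (Rgs5) and epithelium (Epcam), each point a library. The diamond, pMCAO replicate 4, is the highest point for every gene drawn except Epcam (14.8 CPM), for which it is the lowest. The genes drawn were picked after their values were seen. Other markers of the same lists, such as C1qb, Pecam1 and Acta2, were highest in other libraries. Rgs5 was the only pericyte marker listed.

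**Figure D4:**
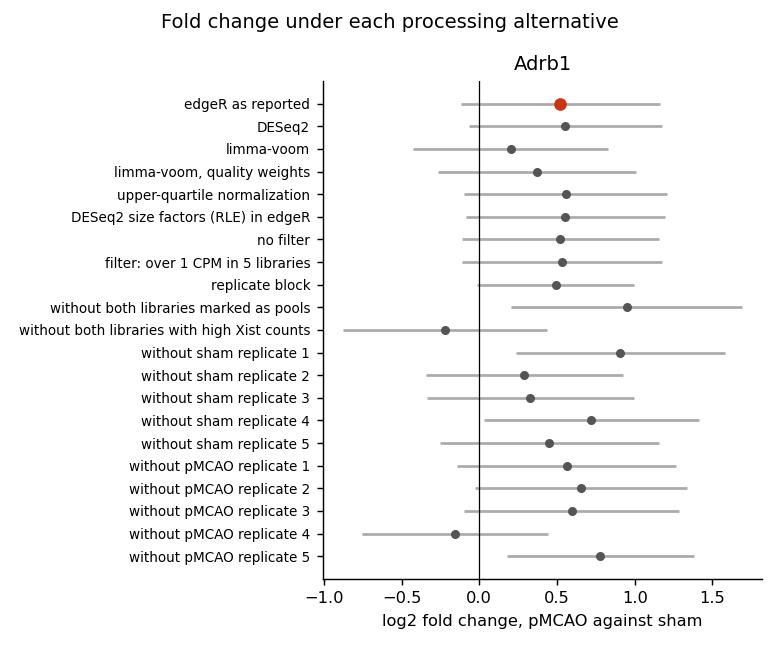
Log2 fold change of Adrb1, pMCAO against sham, with its standard error, as reported (larger point) and under 20 alternatives. It falls below 0 when pMCAO replicate 4 is left out, alone (−0.16) or with sham replicate 5 (−0.22).

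The genes whose log2 CPM ran most like Adrb1 over the 10 libraries were Zcchc14 (r = 0.90, rho = 0.90), Aagab (r = 0.90, rho = 0.88) and Gm17705 (r = 0.90, rho = 0.87), among 16948 genes compared. These are the highest values of many and are given as a description without a test. Without pMCAO replicate 4 r was 0.84 to 0.90, but the genes were picked over the same libraries, so this is no test of the likeness.

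Around the receptors, 118 genes were named in lists, and 97 of them passed the filter. The lists cover the signal from G protein to target genes, the handling of catecholamines and other receptors. None of the 97 passed an FDR of 0.05 in edgeR's test, and 2 had an unadjusted p under 0.05 (2.06%, against 4.71% of all genes). Log2 fold changes were above 0 in 51 and below 0 in 46, where 49.4% of all genes were above 0, and the median was 0.019, against −0.0059 over all genes. In 0 of these genes did the groups separate without overlap, as 0.938% of all tested genes did.

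At the receptor's side of the membrane, the inhibitory subunits Gnai2 and Gnai3 had the highest levels per kb among G protein α subunits, at 65.3 and 47.2 CPM per kb. Gnaq, the subunit that α1 receptors use, was at 95.4 ± 12.4 CPM in sham and 123.4 ± 37.3 CPM after pMCAO (SD, n = 5 each), the smallest unadjusted p of the 8 subunits (0.0890, adjusted p = 0.922 in edgeR's test). Gnas, which encodes the stimulatory subunit that β receptors need, was listed at only 1.09 to 5.07 CPM. Its locus holds 5 other annotated genes that overlap it, so this value is uncertain. Among 6 listed of 10 adenylyl cyclases, Adcy7, the form typical of blood cells, stood at 27.1 CPM per kb, far above the next, Adcy6, at 1.19 CPM per kb. Adcy8 had the smallest unadjusted p (0.0726), at 1.34 ± 0.92 CPM in sham and 0.33 ± 0.34 CPM after pMCAO (SD, n = 5 each).

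Of the protein kinase A subunits, Prkar1a (28.7 CPM per kb) and Prkacb (16.8 CPM per kb) were highest. Their log2 fold changes were 0.026 and 0.086, and Prkar1b, at −0.67, had the smallest unadjusted p of the 6 (0.0889). The exchange factors Rapgef3 and Rapgef4, the other targets of cAMP, averaged 0.456 and 0.647 CPM per kb. Among 10 listed phosphodiesterases, which break down cAMP, Pde4b (16.9 CPM per kb) and Pde7a (11.6 CPM per kb) were highest. Pde3a had the smallest unadjusted p (0.120), with a log2 fold change of −0.87, which was −0.40 without sham replicate 5.

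The kinase Grk2 and β-arrestin 2 (Arrb2), which switch off and internalise an active β receptor, were at 29.1 and 72.8 CPM per kb. Grk4, a kinase of the same family, was at 2.38, 4.39 and 5.60 CPM (lowest, median and highest) in sham and at 4.43, 10.9 and 15.8 CPM after pMCAO. It had a log2 fold change of 1.23 (SE 0.40) and an unadjusted p of 0.00965, but an adjusted p of 0.922 in edgeR's test, and 5 of 5 pMCAO libraries were above the sham mean. It was the 1 gene of the lists that was higher at an unadjusted p under 0.05, as 2.26% of all genes were. Among the scaffolds, Akap13 and Nherf1 were highest per kb (22.4 and 16.9 CPM per kb), with log2 fold changes of −0.10 and −0.40.

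Further downstream, the CREB relative Atf1 (26.4 CPM per kb) and the coactivator Crebbp (22.9 CPM per kb) led their list, with log2 fold changes of 0.31 and 0.13. Of 15 genes that cAMP is known to induce, 4 had a log2 fold change above 0 and 11 below, with a median of −0.20. Their highest members were Fos and Rgs1, at 2871 ± 898 and 4532 ± 1509 CPM in sham and 2740 ± 565 and 4456 ± 1404 CPM after pMCAO (SD, n = 5 each). The part of cAMP in the level of these genes was not tested. Il10, an anti-inflammatory cytokine, had the smallest unadjusted p of this list (0.0943 in edgeR's test). It was at 6.495, 42.5 and 103 CPM (lowest, median and highest) in sham. After pMCAO it was at 11.96, 16.4 and 47.9 CPM, so that the groups overlapped widely. Its log2 fold change was −1.19 (SE 0.66, adjusted p = 0.922 in edgeR's test), and 0 of 5 pMCAO libraries were above the sham mean.

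Of the genes that make, carry or break down catecholamines, the enzyme genes Th, Dbh and Pnmt and the noradrenaline transporter Slc6a2 were not listed. Of the 7 listed, 6 had log2 fold changes below 0, with a median of −0.64, the value of Slc18a2. Without sham replicate 5 that value was −0.15, and without both libraries with high Xist counts it was −0.12. Slc18a2, the vesicular monoamine transporter, was at 26.0, 39.2 and 158 CPM (lowest, median and highest) in sham and 4.60, 35.6 and 85.3 CPM after pMCAO. Mast cells use this transporter for histamine, and the library highest for it, sham replicate 5, was also the highest for the mast cell protease Mcpt1, at 12319 CPM. pMCAO replicate 3 was lowest for both, with Mcpt1 at 167 CPM, and the part of mast cells was not tested. Slc22a3, an uptake transporter for catecholamines, had the smallest unadjusted p of these genes (0.110), with a log2 fold change of −0.95. It was −0.46 without sham replicate 5 and −0.22 without both libraries with high Xist counts.

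Among the other Gs-coupled receptors, 6 of 9 tested had log2 fold changes above 0. Ptgir, the prostacyclin receptor, was at 0.476, 4.70 and 5.32 CPM (lowest, median and highest) in sham and 0.035, 0.63 and 1.24 CPM after pMCAO. With library totals of 6430643 to 28672285 counts, the values after pMCAO rest on few reads. The log2 fold change of Ptgir was −2.51 (SE 0.84), with an unadjusted p of 0.0109 and an adjusted p of 0.922 in edgeR's test. This was the 1 gene of all lists that was lower at an unadjusted p under 0.05, as 2.45% of all genes were. In the Gq branch, Prkcd and Plcb2 were highest per kb (36.8 and 21.1 CPM per kb). The smallest unadjusted p was that of Plcb3 (0.356; log2 fold change −0.17), and the median log2 fold change of the 10 genes was −0.057.

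**Figure D5:**
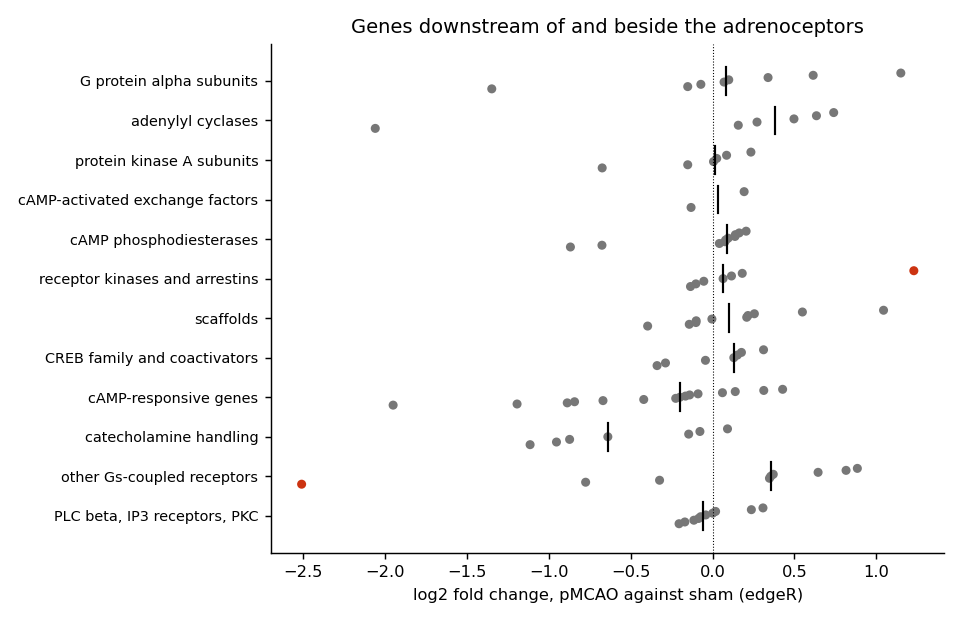
Log2 fold change, pMCAO against sham, of the tested genes of 12 lists around adrenoceptor signalling, each point a gene and the vertical line the list's median, with genes at an unadjusted p under 0.05 in red. The red points are Grk4 (1.23) and Ptgir (−2.51), and no gene passed an FDR of 0.05.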

How the data were processed

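RNA from lamina propria macrophages of 5 sham and 5 pMCAO samples was depleted of ribosomal RNA and sequenced in read pairs. The table deposited by the authors holds whole-number counts for each gene and CPM values, which match the count scaled to a library total of 1000000 within 0.0005. Their table also holds log2 fold changes, log2 mean expression, p-values and FDRs deposited by the authors, which were not used. The submitters' processing notes name STAR, featureCounts, limma and GRCm38. Strand, collection day and the filter before deposit are not given in the sources used here.

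After filterByExpr, which kept 16949 genes, and TMM scaling, pMCAO and sham counts entered a quasi-likelihood fit (edgeR 4.0.16, R 4.3.3) with no covariate and Benjamini-Hochberg adjustment over all tested genes. Log2 CPM used TMM-scaled library sizes and a prior count of 2. Exact permutation tests covered the 252 assignments of the libraries, with a smallest p of 0.00794. Lengths are merged exons of GENCODE M21 (GRCm38), found for 17193 genes. The labels do not say that the libraries come from separate animals, so p-values measure the spread between these samples. Members and lists were chosen with earlier results of these data known. Named genes were the adrenoceptor genes, and per list the 2 highest per kb and that with the smallest p, and the 3 genes most like Adrb1; 1 row that the symbol pattern matched and 1 gene of a list are not reported here. Others (Gnas, the rest of the receptors and markers) were chosen after their values were seen. Alternatives were DESeq2 1.42.0, limma-voom (limma 3.58.1) with and without quality weights, other scalings and filters, a replicate block and left-out libraries. The fits were run on simulated counts with planted changes, and the calls of edgeR were checked only at a low spread set for the simulation. At the spread estimated from these libraries only the direction of the planted changes was checked.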

Additional observations from a re-analysis of the deposited data

Results flagged for a closer look

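In 94 groups of 5 libraries examined (Adrb1, the named genes of the lists and the summed markers), the highest or lowest library lay more than 0.71 of the group's range from its neighbour in 5 groups, where chance gives about 1 in 20. This was not so for Adrb1. For Adcy7, pMCAO replicate 2 was the low library, 0.776 of the range away on the log2 CPM scale. Rapgef3 was low in sham replicate 4 (0.75), Pde3a was low in pMCAO replicate 3 (0.79) and Pde7a was high in sham replicate 5 (0.726). The neutrophil markers, of which only S100a8 was listed, were above 0 in pMCAO replicate 2 alone among the pMCAO libraries (gap 1.0, at 1.26 CPM).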

How the results depend on the processing

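Under the 20 alternatives run, the log2 fold change of Adrb1 was never called (adjusted p of 0.804 to 1.00) but turned to −0.22 without both libraries with high Xist counts, and in edgeR it lay between −0.16 (without pMCAO replicate 4) and 0.91 (without sham replicate 1) when each library was left out. Without both libraries marked as pools it was 0.95. The number of genes past an FDR of 0.05 was 0 under all alternatives except DESeq2, which gave 3, and the cause was not tested. With the replicate block, the log2 fold change of Adrb1 was 0.49, no call changed, 0 genes passed and 1303 had an unadjusted p under 0.05. The labels do not say what a shared replicate number stands for. Deviations of same-numbered libraries correlated at −0.0054 to 0.37 (mean 0.197, against −0.045 for other numbers), 2 of 5 numbers were each other's best match in both groups, and the smallest adjusted p was 0.173 with the block and 0.922 without it. Since not every pair correlated, the fit without the block is the one reported. The difference of mean log2 CPM of Adrb1 was 0.46 with the replicate block (exact sign-flip p = 0.438, and 5 pairs cannot give less than 0.0625). The companion lists had 0 genes past the limit under every alternative. Adrb1 had 52 counts or more in every library, and its libraries differed by 6.85 times within sham and 9.64 times within pMCAO.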
